A study of Homo sapiens with 32 samples.

Results

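OTX2, OTX1 and CRX are the human orthodenticle-related homeobox genes, and the H3K27me3 islands over and around them were mapped in the human line MDA-MB-231, which derives from a triple-negative breast cancer and is of mesenchymal-like basal type. They are 3 of the 19970 protein-coding genes to which coverage was assigned. The genes were chosen by name as a family, and OTX2 was selected on its higher percent covered in the libraries with the EZH2 inhibitor. For that reason every value of OTX2 in a contrast that adds the EZH2 inhibitor is given here as a description, without a test. Cells were left untreated (control), or treated for 24 h with EPZ, an inhibitor of EZH2, with P38i, an inhibitor of the stress kinase p38, or with both (combo). The titles write EP7 for the EPZ group, and no dose is stated in the labels. Each group had 4 ChIPmentation libraries, in which antibody-bound chromatin is tagged by transposase on the beads, so that 16 H3K27me3 libraries were used. The matching 16 IgG libraries, named as the input in the extract protocol, were not used here. All libraries came from 1 line, and nothing says that replicates were separate cultures, so p-values measure the spread between these libraries, which may be technical.

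H3K27me3, trimethylation of lysine 27 of histone H3, is the repressive mark written by the Polycomb repressive complex whose catalytic subunit is EZH2, and it lies in broad domains over silent developmental genes. OTX2 is a paired-class homeodomain transcription factor that specifies the forebrain and midbrain of the embryo and later the photoreceptors and pigment epithelium of the retina. OTX1 is its close relative in the developing cortex and sense organs. CRX, the cone-rod homeobox factor, acts below OTX2 in photoreceptors and switches on their visual genes. The homeodomains of the family share a lysine that reads the core sequence TAATCC.

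OTX2 lies on the minus strand at chr14:56799905-56810479 (RefSeq, GRCh38.p14, 10575 bp). It has an outer start at position 56810479 and an inner start at position 56805667. OTX1 lies on the plus strand at chr2:63049735-63057831 (8097 bp), with the start of its promoter entry at position 63050830. CRX lies on the plus strand at chr19:47821937-47843324 (21388 bp). The 250 bases before each of these 4 starts are shown, because the islands over these windows differed among the genes and, at the outer OTX2 start, among the libraries. The sequences are from RefSeq, read 5′ to 3′ on the strand of the gene. Capitals mark TAATCC or its complement GGATTA, searched on both strands. The windows are chr14:56810480-56810729 for the outer OTX2 start, chr14:56805668-56805917 for the inner OTX2 start, chr2:63050580-63050829 for OTX1 and chr19:47821687-47821936 for CRX.
OTX2 outer start: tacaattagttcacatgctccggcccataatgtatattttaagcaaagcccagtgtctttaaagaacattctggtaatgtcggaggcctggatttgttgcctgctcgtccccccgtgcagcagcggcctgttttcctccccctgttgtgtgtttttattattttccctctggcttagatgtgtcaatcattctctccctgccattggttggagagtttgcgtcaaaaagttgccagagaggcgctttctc
OTX2 inner start: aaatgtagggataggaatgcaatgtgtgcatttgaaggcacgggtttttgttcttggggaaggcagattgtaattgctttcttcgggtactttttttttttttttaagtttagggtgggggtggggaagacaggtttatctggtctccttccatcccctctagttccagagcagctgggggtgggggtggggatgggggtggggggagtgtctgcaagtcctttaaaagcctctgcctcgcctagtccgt
OTX1 start: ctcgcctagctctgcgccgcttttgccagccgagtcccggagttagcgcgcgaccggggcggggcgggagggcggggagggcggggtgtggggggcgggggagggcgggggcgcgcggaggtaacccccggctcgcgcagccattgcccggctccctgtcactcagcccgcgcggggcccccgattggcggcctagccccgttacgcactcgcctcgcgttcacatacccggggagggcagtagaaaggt
CRX start: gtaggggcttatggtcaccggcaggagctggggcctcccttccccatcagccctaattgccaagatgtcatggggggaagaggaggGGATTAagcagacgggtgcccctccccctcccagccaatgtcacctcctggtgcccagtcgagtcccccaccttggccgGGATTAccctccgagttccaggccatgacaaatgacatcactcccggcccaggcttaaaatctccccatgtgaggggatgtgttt
The CRX window held 2 copies of GGATTA, and the other windows held no copy of either form. Of 34961 promoter windows in the RefSeq table, 5.60% held at least 1 copy and 0.335% held 2 or more. CpG pairs numbered 7 at the outer OTX2 start, 4 at the inner OTX2 start, 6 at CRX and 33 at OTX1, against a median of 11 over all windows (quartiles 3 and 23). At least as many CpG pairs as at OTX1 were found in 8.17% of windows. GC content was 47.2% at the outer OTX2 start, 50% at the inner start, 60.4% at CRX and 75.2% at OTX1.

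The value for a gene is the percent of its span, with 2.5 kb added on each side, that lay inside the deposited islands. The 16 lists held 53290 to 85194 islands over 474 to 674 Mb, with median widths from 3.4 to 7.4 kb. Read depth is unknown, so a value says what was called and not how much mark was present. Control replicate 4 and EPZ replicate 1 had the narrowest islands of their groups, with medians of 4 and 3.4 kb. Covered length was 546 Mb with the EZH2 inhibitor and 605 Mb without it on average. Fits that account for it are given for single genes. Because covered length differed with the treatment, these fits cannot tell its part from that of the inhibitor. No island lay over EZH2, MAPK14 (p38 alpha), EED or SUZ12 in any library. The markers of this line VIM, CD44, EGFR, CAV1 and AXL were free of islands in every library, as were 3 of 6 luminal, 2 of 5 photoreceptor or neural, 2 of 3 fibroblast and 2 of 3 leukocyte markers. An island list cannot show expression, so these markers do not check the identity of the cells.

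The 3 genes stood at different levels, in the same order in all 16 libraries. OTX2 was covered over most of its window, at 57.7% in the lowest library, 78.2% at the median and 92.3% in the highest. CRX was covered over 10.5% in the lowest library, 35.5% at the median and 71.2% in the highest. OTX1 had no island within its window in any library, a state it shared with 13581 genes (68% of the table). OTX2 exceeded CRX by 11.0 to 70.3 percentage points within a library. Over all genes, 93.4% had a lower mean than OTX2 and 86.8% a lower mean than CRX.

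**Figure D1:**
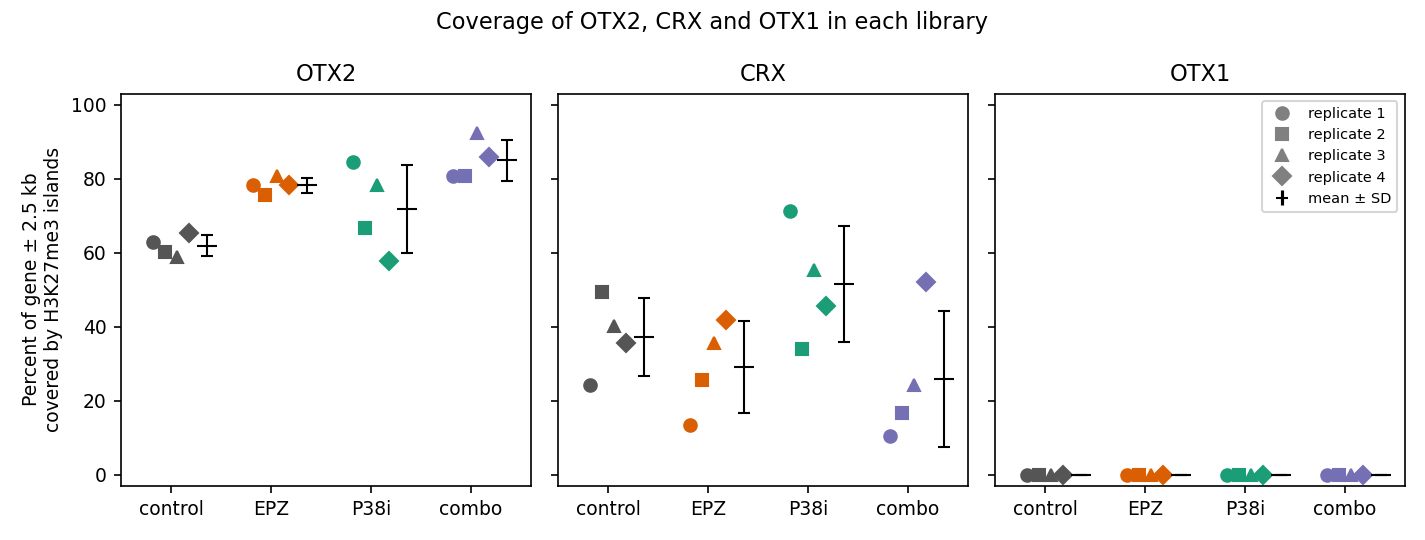
Percent of each gene window covered by H3K27me3 islands (vertical axis) in the 4 groups, with 1 symbol per library by replicate number and bars for the mean ± SD (n = 4). OTX2 lay at 58.9 to 65.4% in control and at 75.6 to 92.3% in the 8 libraries with the EZH2 inhibitor, CRX spread from 10.5 to 71.2%, and OTX1 stayed at 0.

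OTX2 coverage was 62.9, 60.2, 58.9 and 65.4% in control replicates 1 to 4, and 78.2, 75.6, 80.8 and 78.2% in EPZ. In combo it was 80.8, 80.7, 92.3 and 85.9%. Every library with the EZH2 inhibitor was therefore above every control. The P38i libraries spread more widely, at 84.6, 66.6, 78.2 and 57.7%, so that replicate 1 exceeded all 4 EPZ libraries and replicate 4 lay below all 4 controls. The means were 61.9% ± 2.86 in control, 78.2% ± 2.10 in EPZ, 71.8% ± 12 in P38i and 84.9% ± 5.48 in combo (SD, n = 4). EPZ exceeded control by 16.3 percentage points, combo exceeded control by 23.1 and combo exceeded P38i by 13.2. These contrasts chose the gene, so nothing is read from their size. For reference, EPZ lay wholly above control at 0.56% of the 4104 genes tested and combo at 1.61%.

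Over the 8 libraries with the EZH2 inhibitor OTX2 coverage was 81.6% ± 5.26, and over the 8 without it 66.8% ± 9.65 (SD). The difference was 14.7 percentage points (SE 3.57 in a linear model over 16 libraries), while the median over all tested genes was -4.84. The contrast called 16.5% of tested genes in either direction, 0.877% as higher and 15.6% as lower. The 2 sides overlapped, since P38i replicate 1 lay at 84.6%. With the covered length of each library as a covariate the difference was 18. With each list cut to its widest islands up to an equal total length it was 34.9. That cut drops the narrowest islands and takes more from longer lists, on average those without the EZH2 inhibitor. It can therefore shift a difference by itself.

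The p38 contrasts were not used to list OTX2 and were tested with limma over all 4104 genes. P38i against control, combo against EPZ, the p38 main effect and the interaction do share libraries with the contrasts that chose it. These tests are therefore not independent of that choice. P38i exceeded control by 9.91 percentage points (SE 5.05, adjusted p = 0.538 by limma with Benjamini-Hochberg adjustment), in a contrast that called 0.292% of genes. The P38i and control libraries overlapped, and 3 of the 4 P38i libraries lay above all 4 controls. Combo exceeded EPZ by 6.74 points (SE 5.05, adjusted p = 0.883, limma), in a contrast that called 0 genes by limma and held 224 genes at an unadjusted p under 0.05. The main effect of the p38 inhibitor was 8.32 points (SE 3.57, adjusted p = 0.338, limma), against a median of 3.03 over all tested genes and 0.122% called. The interaction of both inhibitors was -3.18 points (SE 7.14, adjusted p = 1, limma), with 0.0487% of genes called. No p38 contrast or interaction of OTX2 passed the threshold of 0.05.

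The islands over OTX2 had the same plan in most libraries, with a block over the body of the gene, a gap near the outer start and a long domain upstream. Windows of 200 bp at chr14:56800601-56804800 and chr14:56806001-56807600, within the gene, were covered in all 16 libraries, and so was chr14:56818401-56823800, upstream of it. In contrast, chr14:56797801-56798800, beyond the 3′ end, was covered in none.

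**Figure D2:**
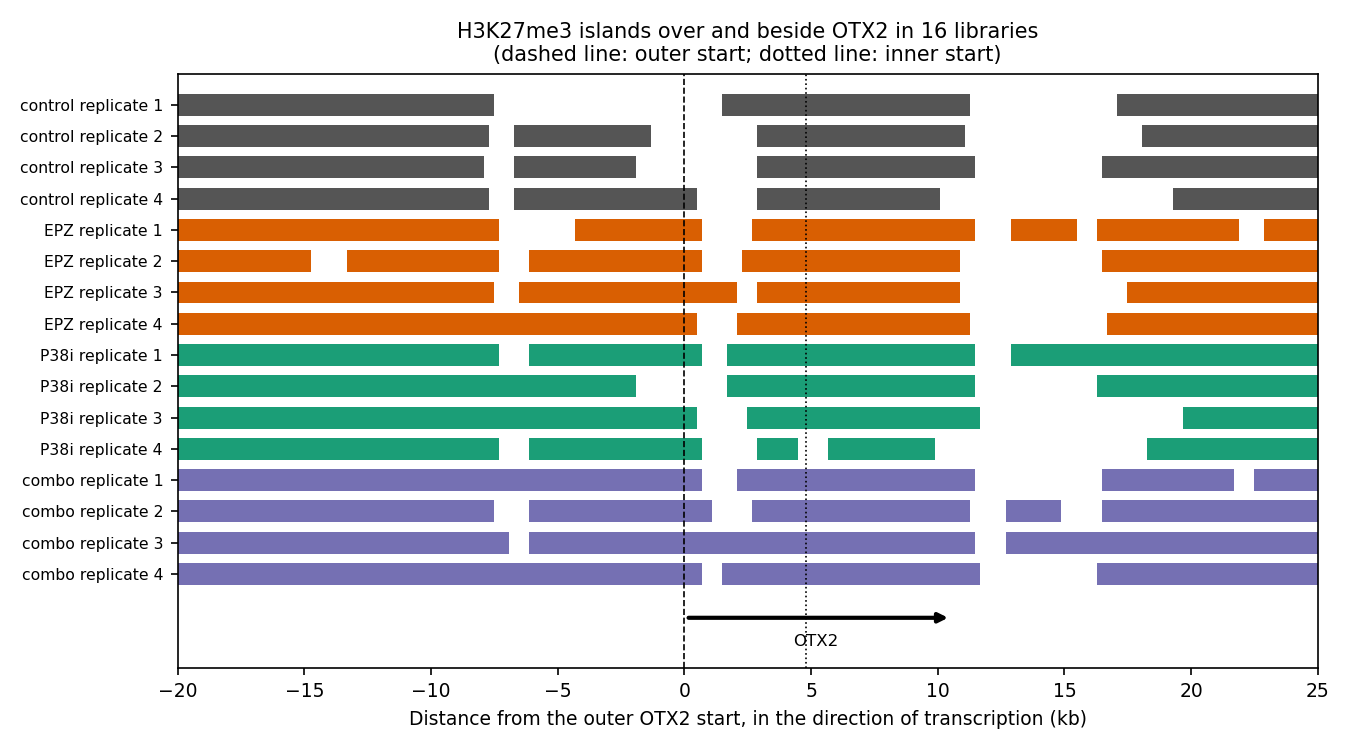
Islands (coloured bars) in each of the 16 libraries from 20 kb upstream to 25 kb downstream of the outer OTX2 start, by distance in kb in the direction of transcription. A gap spans the outer start (dashed line) in control replicates 1, 2 and 3 and in P38i replicate 2, and an island crosses it in the other 12 libraries.

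The libraries differed in the island over the outer start. The gap over that position was 9, 4.2, 4.8 and 0 kb wide in control replicates 1 to 4. It was 3.6 kb in P38i replicate 2, and an island covered the start in the other 11 treated libraries. Between the stretches shared by all 16 libraries on either side of the start (chr14:56807601-56818400, 10.8 kb), 9, 5.2, 6 and 3.4 kb were uncovered in control. The same stretch had 5, 2.8, 1.8 and 1.6 kb uncovered in EPZ. It had 2.2, 3.6, 2 and 3.4 kb uncovered in P38i, and 1.4, 3, 0.8 and 0.8 kb in combo. The means were 5.9 ± 2.34 kb in control, 2.8 ± 1.56 kb in EPZ, 2.8 ± 0.816 kb in P38i and 1.5 ± 1.04 kb in combo (SD, n = 4). Control and EPZ overlapped, because EPZ replicate 1 had 5 kb uncovered. All 4 combo values were below all 4 controls, with 3 kb in the highest combo and 3.4 kb in the lowest control library. The stretch was defined from these libraries at a gene chosen on this contrast, and no share over other genes was computed. The separation is therefore only a description. In EPZ replicate 1 the longest uncovered piece, 3 kb, lay upstream of the start and not over it.

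The window shown above for the outer start lay in an island in 1 of 4 control, 4 of 4 EPZ, 3 of 4 P38i and 4 of 4 combo libraries. The covered control was replicate 4, which had the shortest total covered length and the narrowest islands of the 4 controls. A stretch of 1800 bp around this start, chr14:56810001-56811800, was covered in all 8 libraries with the EZH2 inhibitor and in at most 1 control and 3 P38i libraries. For the shares over all promoters, each window held the 250 bases before a start and also 50 bases after it. Of these 34961 promoter windows, 7 (0.02%) met an island in all 8 libraries with the EZH2 inhibitor and in at most 1 control. They belonged to OTX2, PCDHA12 (a clustered protocadherin), ZNF300 (a zinc finger factor), LINC00494, LOC124903863, LOC107986453 and LOC124901112, which were named after their values were seen. The pattern was set to the counts of the outer OTX2 start itself, so its rarity is a description. In the other direction, 36 windows (0.103%) met an island in all 4 controls and in at most 1 of the 8. With at most 2 of the 8, the same share as 1 of 4 controls, there were 73 (0.209%). The inner OTX2 start was in an island in 15 of 16 libraries, all but P38i replicate 4. Over all promoter windows 3.99% met an island in every library and 80.1% in none.

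The OTX2 window was split into 4 stretches. The 2.5 kb upstream of the outer start were covered over 42.6% ± 42.8 in control, 100% in every EPZ and combo library, and 80.8% ± 38.4 in P38i (SD, n = 4). The 4812 bp from the outer to the inner start were covered over 49.9% ± 13.7 in control, 68.8% ± 10.5 in EPZ, 62.5% ± 13.3 in P38i and 80.3% ± 14.9 in combo. The remaining 5763 bp of the gene were at 97.8% ± 4.30 in control, 93.2% ± 13.6 in P38i and 100% in every EPZ and combo library. The 2.5 kb beyond the 3′ end were least covered, at 21.1% ± 15.5 in control, 24.1% ± 15.2 in EPZ, 31.1% ± 21.1 in P38i and 44.1% ± 6.47 in combo. Of the 14.7 points between libraries with and without the EZH2 inhibitor, 11.8 came from the stretches on either side of the outer start. For EPZ against control those stretches gave 15.1 points, for combo against control 18.6, and for P38i against control 10.0. The body of the gene was covered whole in 3 of 4 controls and gave 1.65 of the 14.7 points, and the stretch beyond the 3′ end gave 1.28.

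**Figure D3:**
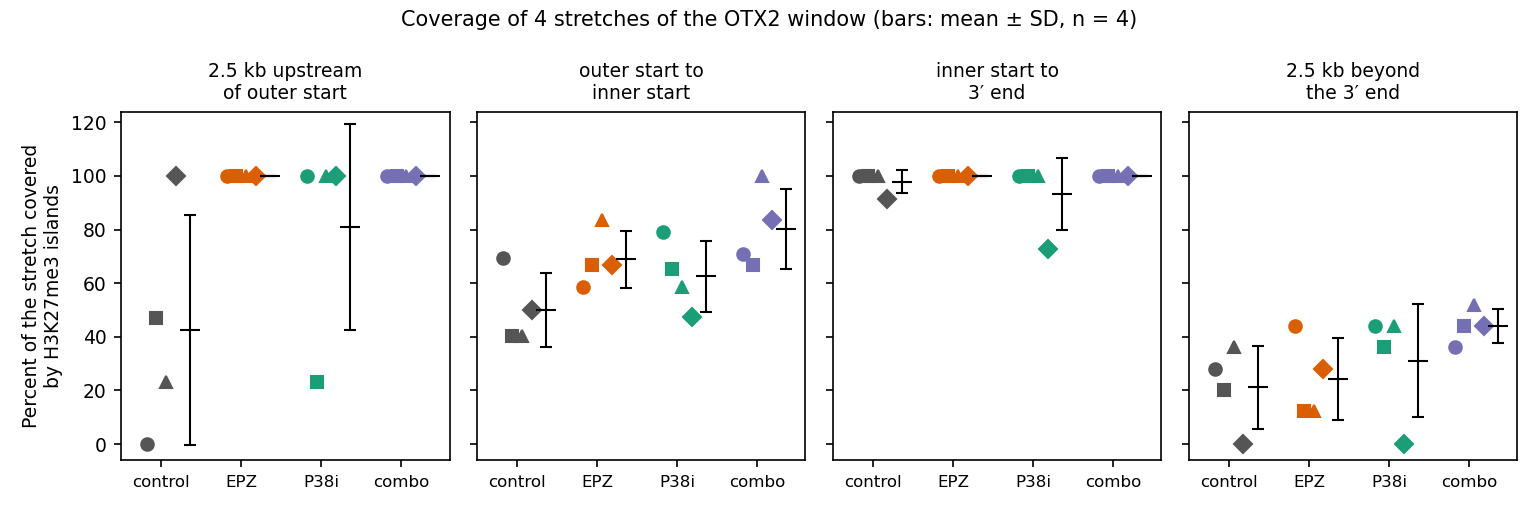
Percent covered (vertical axis) in the 4 stretches of the OTX2 window, by group, with 1 symbol per library (circle, square, triangle and diamond for replicates 1 to 4) and bars for mean ± SD (n = 4), which may pass 100%. The 2.5 kb upstream of the outer start were fully covered in 1 control, 4 EPZ, 3 P38i and 4 combo libraries, while the stretch from the inner start to the 3′ end was near 100% in most.

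CRX coverage had a larger SD than OTX2 coverage in each of the 4 groups, and none of its 8 contrasts passed the threshold. It was 24.1, 49.3, 40.0 and 35.5% in control replicates 1 to 4, and 13.5, 25.6, 35.5 and 41.7% in EPZ. P38i libraries lay at 71.2, 34.1, 55.2 and 45.4%, and combo libraries at 10.5, 16.5, 24.1 and 52.2%. All 4 groups overlapped one another. The means were 37.2% ± 10.5 in control, 29.1% ± 12.3 in EPZ, 51.5% ± 15.7 in P38i and 25.8% ± 18.4 in combo (SD, n = 4). Combo replicate 4 held 52.2%, more than any control, while the other 3 combo libraries lay at or below the lowest control, replicate 1.

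With the EZH2 inhibitor CRX was at 27.5% ± 14.6 and without it at 44.3% ± 14.5 (SD, 8 libraries each), a difference of -16.9 points (SE 6.92, adjusted p = 0.109, limma) that turned to 3.18 with lists of equal length. It passed the threshold with a flank of 10 kb (-13.7, adjusted p = 0.0495, limma) and without combo replicate 4 (-21.3, adjusted p = 0.0358, limma). The adjusted p ranged from 0.0358 to 0.840 over the alternatives. Within that contrast, EPZ differed from control by -8.15 points (adjusted p = 0.683, limma), with 3.17% of genes called. Combo differed from P38i by -25.6 points (SE 9.79, adjusted p = 0.163, limma), with 1.92% called, and from control by -11.4 points (adjusted p = 0.574, limma), with 1.68% called. Combo and EPZ differed by -3.26 points (adjusted p = 0.964, limma). With the p38 inhibitor alone CRX exceeded control by 14.2 points (SE 9.79, adjusted p = 0.680, limma). The main effect of the p38 inhibitor was 5.49 points (SE 6.92, adjusted p = 0.753, limma) and the interaction -17.5 (adjusted p = 1, limma). The signs of the P38i, EPZ, combo against P38i and p38 values also turned with lists of equal length.

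Islands at CRX were short and scattered. A piece of 2200 bp inside the gene, chr19:47836801-47839000, was covered whole in 13 of 16 libraries, and so was a piece of 400 bp upstream of the start, chr19:47819401-47819800. The piece chr19:47824001-47824600, just inside the gene, was covered in none. The start itself was mostly free: the window with 2 copies of GGATTA met an island in 4 libraries, control replicates 3 and 4, P38i replicate 1 and combo replicate 4. P38i replicate 1 and combo replicate 4 were also the highest libraries of their groups for CRX as a whole.

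OTX1 was the bare member of the family. Its nearest island was 25.2 kb away in the closest library and 575 kb away in the farthest, and 7 of 16 libraries had any island within 200 kb. It lay at 0 in every library also with no flank, a flank of 10 kb, lists of equal length and islands of at least 2 kb. Its mean lay outside the 5 to 95% range, so no model was fitted to it. The OTX1 window printed above, the most CpG-rich of the 4, met no island in any library.

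The surroundings differed as much as the genes. Within 200 kb on either side, islands covered 77.6% ± 2.59 at OTX2, 26.3% ± 2.31 at CRX and 0.919% ± 1.25 at OTX1 (SD, 16 libraries), against a median of 6.50% over all genes. A lower neighbourhood was found at 98.3% of genes for OTX2, 75.5% for CRX and 30.8% for OTX1. At OTX2, 50% of the 200 bp windows were covered in all 16 libraries and 16.2% in none. At CRX 10.9% were covered in all libraries and 63.9% in none, and at OTX1 0% and 91.1%. OTX2 therefore sat inside a domain present in every library and OTX1 in a largely empty region. CRX held short islands within it and just upstream, and its most covered neighbouring genes lay downstream.

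**Figure D4:**
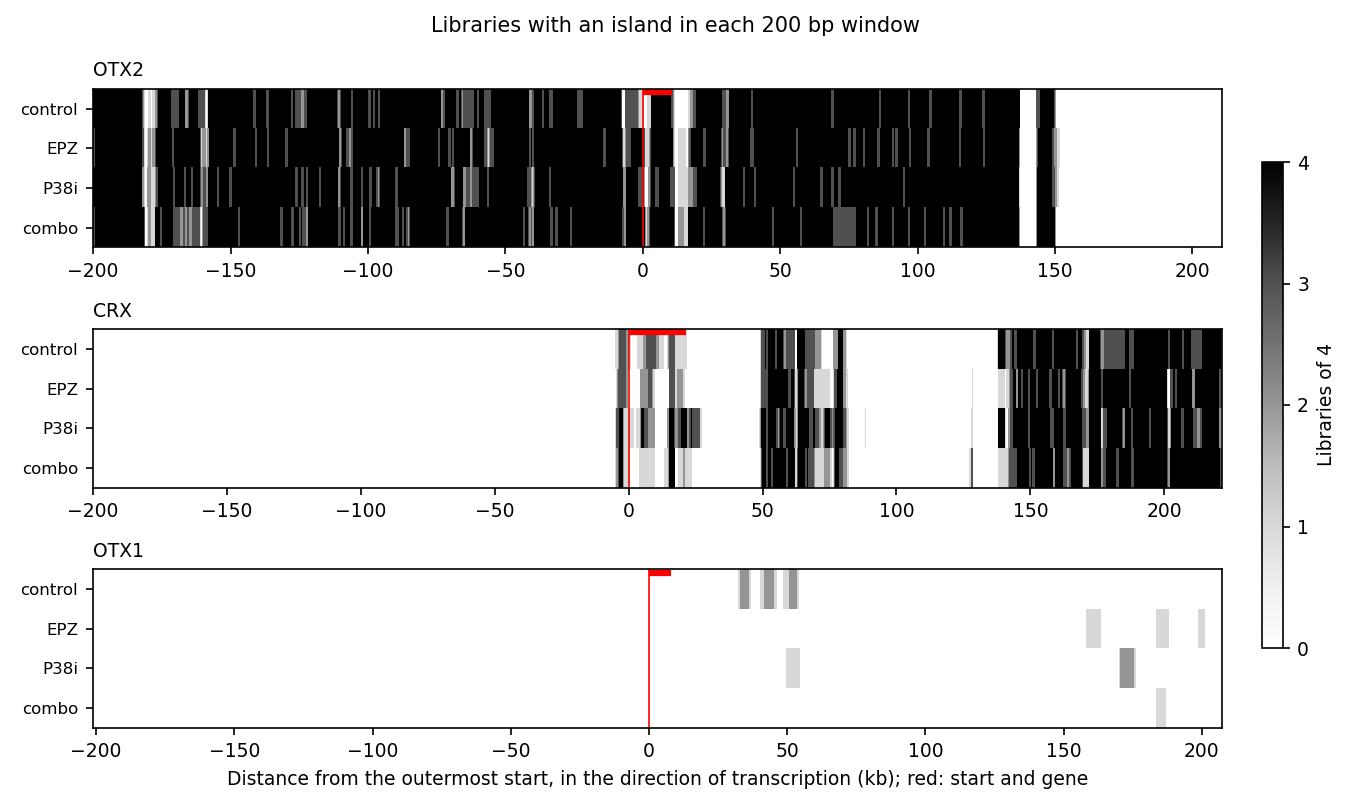
Number of the 4 libraries of each group with an island in each 200 bp window (white 0, black 4), by distance in kb from the outermost start in the direction of transcription, with the gene in red. Islands fill 77.6% of the OTX2 region on average, 26.3% of the CRX region and 0.919% of the OTX1 region.

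The OTX2 neighbourhood was covered over 78.0% ± 1.86 with the EZH2 inhibitor and 77.1% ± 3.23 without it (SD, 8 libraries each), a difference of 0.909 points that was -0.0796 without control replicate 4 and is given with no test. The libraries with and without the p38 inhibitor differed by 0.719 points (2-sided exact permutation p = 0.639, adjusted over 5 tests 0.639), and by -0.390 with lists of equal length. The CRX neighbourhood was at 25.3% ± 1.31 with the EZH2 inhibitor and 27.4% ± 2.69 without it, a difference of -2.09 points (exact permutation p = 0.0702, adjusted 0.260) that was 1.49 with lists of equal length. For the p38 inhibitor the CRX difference was 1.89 points (exact permutation p = 0.104, adjusted 0.260), and -0.933 with lists of equal length. At OTX1 the differences were -0.809 (exact permutation p = 0.217, adjusted 0.361) and -0.588 (exact permutation p = 0.354, adjusted 0.442). None of the 5 tests passed. The OTX2 neighbourhood was split into 7 to 28 islands per library, and its widest island measured 32 to 151 kb.

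The genes near OTX2 differed in coverage. OTX2-AS1, a long non-coding RNA gene that begins 1.53 kb upstream of the outer start, was covered over 84.5 to 99% in every library. LOC124903322, a non-coding gene 4.43 kb beyond the 3′ end, was at 13.7% ± 14.6 in control, 37.9% ± 28.8 in EPZ, 32% ± 44.1 in P38i and 57.8% ± 31.2 in combo (SD, n = 4). Its groups overlapped, and as a non-coding gene it was outside the test. LOC124903323, a non-coding gene 143 kb upstream, was covered over 76.2 to 96.2% in all 16 libraries. TMEM260, the only other protein-coding gene within 200 kb, lies on the 3′ side, with 8.17% covered with the EZH2 inhibitor and 8.34% without it (adjusted p = 0.937, limma).

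Near OTX1, EHBP1, an endocytic adaptor gene, was free of islands in every library and WDPCP, a planar cell polarity gene, was covered over 1.62 to 6.58%. Near CRX, the upstream genes BICRA, EHD2, NOP53 and SELENOW, and TPRX2 downstream, were at 0 in all 16 libraries. The downstream genes BSPH1 and ELSPBP1, which encode epididymal sperm-binding proteins, and CABP5, which encodes a calcium-binding protein of the retina, were covered over at least 66.5% in every library. SULT2A1, a hepatic sulfotransferase, lay at 58.6 to 85.4%. With the EZH2 inhibitor BSPH1 differed by -6.52 points (adjusted p = 0.0950, limma), CABP5 by 8.36 (adjusted p = 0.152, limma), ELSPBP1 by 2.49 (adjusted p = 0.649, limma) and SULT2A1 by 1.67 (adjusted p = 0.785, limma). TPRX1, a homeobox gene of the early embryo that arose from CRX, stood at 12.2% with and 12.7% without the EZH2 inhibitor (adjusted p = 0.935, limma). No neighbour that was tested passed the threshold.

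OTX2 and CRX were then set among 99 homeobox genes, 45 of the paired class and 54 others of the head, eye and neural tube. In mean coverage OTX2 ranked 7 and CRX 25 of the 99, and 44 genes, OTX1 among them, were at 0 in all libraries. The paired-class gene next above OTX2 was PRRX1, a mesenchymal factor, at 74.5%. Close relatives with the same type of homeodomain, PITX1, PITX3 and GSC2, were at 0, as were RAX, SIX3 and HESX1, which act in the eye field and anterior brain, while GSC lay at 32.4%. Not all eye and forebrain genes of the 99 were bare. SIX6 had a mean of 39.6%, VAX1 of 32.6%, EMX2 of 30.5% and PAX6 of 5.08%.

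With the EZH2 inhibitor, of 20 paired-class genes tested 1 was called higher and 0 were called lower. The 1 was OTX2 itself, which was listed for this contrast, so its call is not read as a result. The median difference of the 20, OTX2 included, was 0.698 points, against -4.84 over all tested genes. OTX2 is 1 of the 10 genes with a positive difference, and the middle value of the others was -0.255 (DRGX). The median of the 20 also changed sign with the setting. It was -0.825 with a flank of 10 kb, where 2 genes were called lower, -0.255 with no filter, -1.22 with islands of at least 2 kb and -0.693 on the arcsine scale. It was 4.21 with covered length in the model and 6.51 with lists of equal length. Without 1 library it ran from -1.50 to 2.02 and was below 0 in 9 of 16 cases. The calls moved too: with no flank 0 of 19 genes tested were called in either direction, and without control replicate 4, 3 were called lower. PAX3, a neural crest factor, differed by -15.9 points (adjusted p = 0.145, limma). It passed without control replicate 4 (adjusted p = 0.0354, limma) and without P38i replicate 4 (adjusted p = 0.0395, limma). Of the 27 head and eye homeobox genes outside the class that were tested, 6 were called lower and 0 higher, with a median of -5.83 (1.05 with covered length in the model and 2.90 with lists of equal length), where the contrast called 15.6% of all genes lower. MEIS1, a cofactor of HOX proteins, fell from 49.96% ± 11.0 to 30.7% ± 7.71 (SD, 8 libraries each, adjusted p = 0.0181, limma). NKX6-1, a ventral neural tube factor, fell from 17.6% ± 11.1 to 3.31% ± 3.99 (adjusted p = 0.0282, limma). GBX1 fell from 70.1% ± 5.82 to 52.0% ± 15.4 (adjusted p = 0.0494, limma) and DLX4 from 11.2% ± 9.31 to 0.581% ± 1.64 (adjusted p = 0.0440, limma). Leaving out 1 library at a time, MEIS1 passed in all 16 cases, while the call was lost in 7 cases for NKX6-1, 12 for GBX1 and 13 for DLX4, with adjusted p up to 0.0626, 0.0958 and 0.0890 (limma). The count of 6 then ranged from 2 (without EPZ replicate 1 or 2, or P38i replicate 1, 2 or 3) to 10 (without P38i replicate 4). With covered length as a covariate none of the 27 was called lower and 1 was called higher, and with lists of equal length none of 19 was called in either direction. The p38 main effect called 0 genes in both homeobox lists and 0.122% of all tested genes, so nothing is read from that count.

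**Figure D5:**
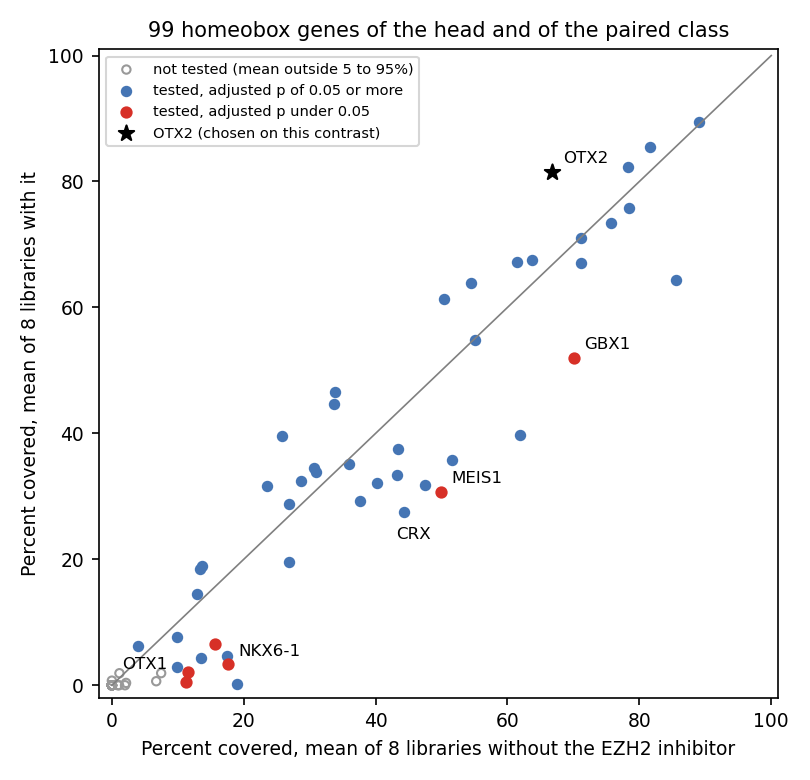
Mean percent covered in the 8 libraries without the EZH2 inhibitor (horizontal axis) and in the 8 with it (vertical axis) for the 99 homeobox genes, with the line of equality. Of the genes tested, 6 fell (red), and OTX2 (star), which was listed for this contrast, is at 66.8% and 81.6%.

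Lists of genes that OTX2 and CRX are known to regulate, and of OTX2 partners, were counted in the same way. Of 38 photoreceptor and retina genes 26 were at 0 in all libraries, of 10 retinal pigment epithelium genes 4, and of 19 head organiser and signalling partners 12, where 68% of all genes were at 0. The first and last of these shares are near that of all genes, and nothing is read from them. With the EZH2 inhibitor 1 of 10 photoreceptor genes tested was called lower and 0 higher, with a median of -4.22, where 15.6% of all tested genes were called lower and their median was -4.84. That gene was PDE6C, the cone phosphodiesterase subunit, which fell from 31.0% ± 4.68 to 17.1% ± 6.04 (adjusted p = 0.00680, limma). Of 6 pigment epithelium genes tested 2 were called lower and 0 higher, with a median of -9.97 that was 1.08 with covered length in the model and -2.66 with lists of equal length, with 0 called in both. These were the visual cycle enzymes LRAT, which fell from 39.0% ± 14 to 11.2% ± 14 (adjusted p = 0.0126, limma), and RPE65, which fell from 35.4% ± 13.3 to 8.99% ± 13.9 (adjusted p = 0.0182, limma). With lists of equal length PDE6C, LRAT and RPE65 did not pass (adjusted p = 0.260, 0.562 and 0.687, limma), with differences of -8.17, -9.71 and -5.84 points. With covered length as a covariate LRAT differed by -23.4 points (adjusted p = 0.0671, limma), against -27.8 without it, and RPE65 by -23.5 (adjusted p = 0.0816, limma), against -26.4.

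With the EZH2 inhibitor, of 5 partners tested none was called in either direction, where the contrast called 16.5% of all tested genes. Those with the largest differences were SOX2, a neural stem cell factor (-11.6 points, adjusted p = 0.379, limma), and FOXA2, an organiser factor (-8.87 points, adjusted p = 0.556, limma, and 5.33 with covered length as a covariate). Among 5 homeobox genes derived from CRX by duplication, 3 were tested and 0 called, including ARGFX (-11.2 points, adjusted p = 0.162, limma, and 0.0400 without EPZ replicate 4) and DPRX (2.88 points, adjusted p = 0.818, limma). The p38 main effect called 0 genes in each of these lists and 0.122% of all tested genes. With so few genes tested, nothing is read from the counts of 0 in this paragraph.

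The genes whose coverage followed each member most closely were found by the mean absolute difference in percent covered over the 16 libraries. For OTX2 they were IVL at 6.40 points, GPR27 at 7.06, SMOC2 at 7.35, VSTM4 at 7.40 and SULT2A1 at 7.41, against a median of 33.4 over the tested genes. For CRX they were FCRL6 at 8.44 points, TESC at 8.87, MMRN1 at 9.41, CR1 at 9.55 and GPR149 at 9.55, against a median of 26.3. The likeness measures level as well as pattern, and the points share the libraries and their covered lengths.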

How the data were processed

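Coverage of OTX2, OTX1 and CRX was computed from 16 H3K27me3 island lists. Per the labels and the files, the lists deposited by the authors hold island bounds on hg38 and nothing else: they carry no other unit, score or count. Per the submitters' processing notes, the tools were SICER, Bowtie2 2.3.4.1, SAMtools 1.2, Picard, bedtools 2.28.0, cutadapt, Trim Galore and FastQC. Their roles, order and settings: not given in the sources used here. Island bounds lie on a 200 bp grid, and the smallest gap is 800 bp. A caller that joins windows across gaps can turn a small change of signal into a long change of coverage.

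Genes came from the RefSeq table of GRCh38.p14. Of 19970 genes, 4104 with a mean coverage of 5 to 95% were fitted, 15515 lay below and 351 above. The fit was limma 3.58.1 (R 4.3.3, trend and robust) over 16 libraries, with Benjamini-Hochberg adjustment per contrast and a threshold of 0.05, tested on simulated data. Neighbourhoods of 200 kb were compared by exact permutation tests. Python 3.11.15, numpy 2.4.6, pandas 2.3.3 and matplotlib 3.10.9 did the rest. Named beside the members were neighbours within 200 kb, 5 like genes per tested member, and per list at most 4 called genes with the largest difference or, with none called, 2. The members, lists and tests were chosen with earlier results of these data known. Alternatives were the flank, the filter, covered length, island width, the scale, the replicate block and leaving out each library. Proteins and exons were not used here, and some genes that the rule names are not reported here.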

Additional observations from a re-analysis of the deposited data

Results flagged for a closer look

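In 20 groups of 4 libraries whose values varied, 3 held a library far from the others, where chance gives about 1 in 20. The OTX2 neighbourhood of 200 kb was covered over 70.2% in control replicate 4 and over 77.9 to 79.1% in the other controls. This library also had the shortest covered length and narrowest islands of the controls, and was the 1 control with an island over the outer OTX2 start. The part of library width in these values was not tested, because covered length entered only the fits of the gene windows. The OTX1 neighbourhood was covered over 3.19% in EPZ replicate 4 and over 0.931% in combo replicate 3, and was at 0 in the other 3 libraries of each group. These values came from 3 islands and 1 island. With the other libraries of both groups at 0, the rate of 1 in 20 need not hold for these flags.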

How the results depend on the processing

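The OTX2 difference with the EZH2 inhibitor kept its sign in all alternatives run, from 10.8 (no flank) to 34.9 (lists of equal length). Leaving out 1 library gave 12.4 to 16.9, and 6.19 to 10.7 for the p38 inhibitor. Lists of equal length lose more from libraries without the EZH2 inhibitor on average, so that setting can shift values by itself. With lists of equal length, CRX turned to 3.18 for the EZH2 inhibitor, -9.24 for the p38 inhibitor, 2.62 for EPZ against control, -9.80 for P38i against control, 3.73 for combo against P38i and 1.11 for the interaction. In the same setting the OTX2 interaction turned to 0.0738, the OTX2 neighbourhood gave 3.69 (EZH2 inhibitor) and -0.390 (p38 inhibitor), the CRX neighbourhood 1.49 and -0.933, and ARGFX and FOXA2 0.487 and 0.999. FOXA2 was 5.33 with the covered length in the model, and the OTX2 interaction and DPRX were 1.99 and -0.627 with no flank. The CRX difference passed with a flank of 10 kb (-13.7). Leaving out 1 library gave -21.3 to -13.6 for CRX with the EZH2 inhibitor and 1.11 to 8.40 with the p38 inhibitor. Neighbourhood differences without 1 library were -0.0796 to 1.39 and -0.283 to 1.18 at OTX2, -1.19 to -0.550 and -0.891 to -0.306 at OTX1, and -2.65 to -1.58 and 1.36 to 2.37 at CRX. The OTX2 interaction ran from -7.88 to 1.10 (without P38i replicate 1), the CRX difference of combo and EPZ from -12.0 to 1.86, above 0 without EPZ replicate 4 (0.947) or combo replicate 1, and DPRX from -0.338 to 6.07, below 0 without control replicate 3 or combo replicate 4 (-0.0210). The causes were not tested.

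The EZH2 contrast called 36 genes higher and 642 lower, 127 and 260 with the covered length in the model, 70 and 95 with lists of equal length, and 390 lower without P38i replicate 3. The p38 main effect called 5 genes, and 32 higher without control replicate 1. The median over tested genes moved from -4.84 to -1.21 with the covariate and -1.02 with equal lengths.

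Same-numbered libraries correlated at -0.151 to 0.178 and others at -0.204 to 0.164. These ranges overlap but cannot show whether same-numbered libraries shared a culture or a day. Replicate numbers are used here only to name libraries. With a replicate block OTX2 stayed at 14.7 (SE 3.64), CRX had an adjusted p of 0.127 (limma), and 33 genes were called higher and 554 lower. Without read depth, a gap in an island cannot be told apart from weak signal in a shallow library.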
